A study of Triticum aestivum with 8 samples.

Results

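The transcripts described here lost most of their signal in wheat crowns held in the cold and still gave a high signal afterwards. They are 150 probe sets of the 61115 tested on the Affymetrix wheat array, and they were chosen by their measured values. Control probe sets and 40 probe sets of genes named in the rule were left out first, among them genes of photosynthesis, fructan breakdown, the cell wall, redox enzymes, tubulins and histones. Of the rest, 14252 stood at a log2 signal of at least 8 on every cold-acclimated (CA) array, and 3795 of these had every non-acclimated (NT) array above every CA array. The gap between the lowest NT array and the highest CA array ranked them, and the 150 largest gaps were taken. The rule thus fixed that the members fell in CA, and the size of that fall is a description with no test.

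Crown tissue, the region just above the roots, came from a freeze-resistant line (SD16029, FR) and a freeze-susceptible line (SD16169, FS), each a single mutant line made with sodium azide in the winter wheat cultivar Winoka. The 8 arrays were 2 of FR CA, 2 of FS CA, 2 of FR NT and 2 of FS NT. NT plants were taken from a greenhouse at 22 to 28°C at the third to the fourth leaf stage, and CA plants moved from there spent 4 weeks at 4°C, so that cold and plant age cannot be told apart. The crowns of 3 biological replicates were pooled before hybridisation, and the methods treat both arrays of a group as technical replicates. The p-values below therefore measure the spread between arrays alone.

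The crown carries the meristems from which a winter cereal regrows, and it is the organ whose survival decides whether the plant lives through a frost. During cold acclimation growth slows, while protective proteins such as dehydrins build up. Transcripts of growing and dividing tissue include those of the core histones, the proteins around which DNA is wound, which are made mainly while DNA is copied. In bulk tissue a lower signal can come from fewer cells of a type or from less RNA per cell, and these cannot be told apart.

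As a set, the members stood near the top of the array in NT and still high on it in CA. Their CA values ran from 8.0 to 11.78 (median 9.26), against 11.69 to 16.11 (median 14.06) in NT. The median member stood at 9.37 and 9.43 on the FR CA arrays and at 9.14 and 9.25 on the FS CA arrays, against 14.02 and 14.09 on the FR NT arrays and 14.13 and 14.0 on the FS NT arrays. Ranked among all tested probe sets, the median member lay at the 83.3rd percentile in FR CA and the 81.9th in FS CA, against the 98.8th in FR NT and the 98.9th in FS NT. No member lay under the 75.8th percentile in either CA group, which the level limit of the rule fixed. Probe sets differ in how well they bind, so a signal does not rank one transcript's amount against another's.

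The median log2 change (CA minus NT) was -4.11 in FR, with members between -6.65 and -3.23, and -4.37 in FS, with members between -6.83 and -3.28. On the linear scale the median member was 17.2-fold lower in FR and 20.7-fold lower in FS, which left 5.81% of its NT signal in FR and 4.83% in FS. The median standard error of a member's change was 0.13. The limma fit called 150 of 150 lower in FR and 150 of 150 lower in FS (Benjamini-Hochberg adjusted p under 0.05), where 13.6% of all tested probe sets were called lower in FR, 13.8% in FS and 12.3% in both, but this is the contrast that chose them. Relative to the poly-A spike-in controls, which read 0.71 higher in FR CA than in FR NT and 0.70 higher in FS CA than in FS NT, the median changes were -4.81 in FR and -5.08 in FS.

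**Figure D1:**
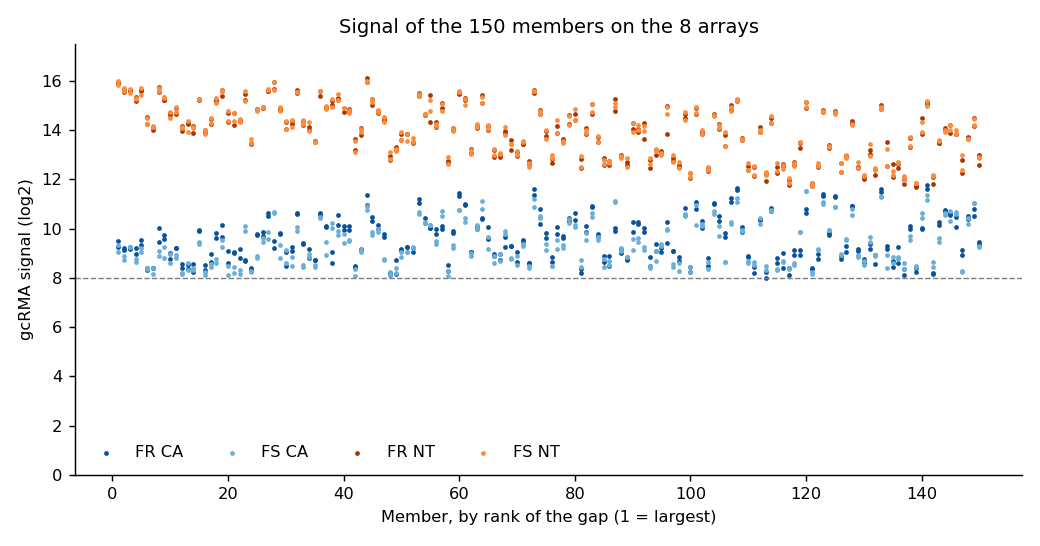
gcRMA log2 signal (vertical axis) of each of the 150 members on the 8 arrays, ordered along the horizontal axis by the rank of the gap. Points are single arrays, coloured by group, and the dashed line is the level limit of 8. CA points lie between 8.0 and 11.78 and NT points between 11.69 and 16.11, and the distance between them narrows along the axis because it sets the order.

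The widest gap belonged to TaAffx.132315.1.S1_at, which has no gene name in the annotation. It read 9.49 and 9.25 in FR CA and 9.06 and 9.33 in FS CA, against 15.91 and 15.94 in FR NT and 15.83 and 15.98 in FS NT. The 4 CA arrays thus stood together far below the 4 NT arrays, a 94.0-fold difference in FR and a 105.0-fold difference in FS. Of the next 9 members by gap, 6 belonged to 3 large sequence clusters described below. Ta.10329.13.S1_a_at read 9.23 and 9.14 in FR CA and 8.90 and 8.72 in FS CA, against 15.69 and 15.53 in FR NT and 15.60 and 15.70 in FS NT. Both CA groups of this probe set were tight, and its fall in FS (-6.83) was the largest of any member in that line. Ta.2876.1.S1_x_at, also without a name, differed hardly at all between the lines. It read 8.38 and 8.30 in FR CA and 8.39 and 8.36 in FS CA, against 14.55 and 14.23 in FR NT and 14.26 and 14.48 in FS NT.

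The other members among the 10 widest gaps were Ta.27657.9.S1_x_at (gap 6.27), Ta.7378.3.S1_at (5.95), Ta.27657.9.S1_at (5.9), Ta.7378.7.S1_at (5.61), Ta.27101.5.S1_x_at (5.55), Ta.24372.1.S1_x_at (5.5) and Ta.10329.24.S1_at (5.48). Each of these stood between 8.15 and 10.02 on the CA arrays and at 14.02 or above on the NT arrays. At the other end, the last members taken were Ta.18968.1.S1_s_at (gap 3.123), Ta.24304.2.S1_a_at (3.12) and TaAffx.6809.1.S1_at (3.119). The first left out were Ta.27761.2.S1_x_at (3.114), Ta.2534.1.S1_at (3.112) and Ta.3238.1.A1_a_at (3.112). The edge of the set is therefore a cut through a continuous run of gaps. Ta.2534.1.S1_at, just outside, read 10.74 and 9.99 in FR CA and 9.18 and 9.21 in FS CA, against 13.90 and 14.21 in FR NT and 14.08 and 13.86 in FS NT.

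The highest CA signals among the members were those of Ta.10329.39.S1_at, Ta.2886.1.S1_at, Ta.18968.3.S1_x_at, Ta.27101.2.S1_at and Ta.7378.8.S1_at. Ta.10329.39.S1_at read 11.59 and 11.78 in FR CA and 11.35 and 11.16 in FS CA, against 15.06 and 15.16 in FR NT and 14.99 and 15.18 in FS NT, so that 9.31% of the signal was left in FR and 7.06% in FS. Ta.2886.1.S1_at, the single member of its cluster, read 11.56 and 11.65 in FR CA and 11.25 and 11.07 in FS CA, against 15.21 and 15.17 in FR NT and 15.17 and 15.25 in FS NT. All 5 kept between 4.25% and 9.51% of their NT signal.

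Only 9 members carry a gene symbol in the array's annotation, for 7 genes, and the other 141 are named here by their probe sets. None of the 7 genes matched the functional classes listed for this comparison, since the tables give symbols with no description. The histone gene is wcH2B-6 (LOC543183), which encodes a core histone H2B. Its probe set Ta.27708.1.S1_at read 9.03 and 8.99 in FR CA and 8.46 and 8.18 in FS CA, against 14.71 and 14.21 in FR NT and 14.38 and 14.70 in FS NT. The second probe set, Ta.27708.1.S1_x_at, read 8.61 and 9.08 in FR CA and 8.48 and 8.10 in FS CA, against 14.70 and 14.32 in FR NT and 14.38 and 14.79 in FS NT. Both probe sets of wcH2B-6 thus fell further in FS (-6.22 and -6.29) than in FR (-5.45 and -5.67), but neither difference in response was called. Signals of near-identical histone genes may be shared by these probe sets, since an x_at name marks probes that can bind other transcripts.

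TaGlu1a (LOC780595) encodes a beta-glucosidase that releases benzoxazinone defence compounds from their stored glucosides. It read 9.36 and 9.41 in FR CA and 8.45 and 8.52 in FS CA, against 14.20 and 14.37 in FR NT and 14.40 and 14.25 in FS NT. The lines did not overlap in CA and did overlap in NT, and 3.35% of the signal was left in FR against 1.75% in FS. The other probe set of this cluster, Ta.4601.1.S1_s_at, carries no gene symbol and fell by only 1.04 in FR and 0.74 in FS. It was lower in FR CA, with 11.79 and 12.20 in FR CA and 12.39 and 12.29 in FS CA.

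The remaining 5 genes have only locus names, and no role is given for them. LOC543143 (Ta.14456.1.S1_at) was 33.9-fold lower in FR and 37.5-fold lower in FS, reading 9.19 and 8.79 in FR CA and 8.86 and 8.97 in FS CA, against 14.02 and 14.13 in FR NT and 14.32 and 13.97 in FS NT. LOC543090 (Ta.27217.1.S1_at) read 9.86 and 10.02 in FR CA and 9.15 and 9.27 in FS CA, against 13.66 and 14.29 in FR NT and 14.18 and 13.95 in FS NT. LOC543143 overlapped between the lines in CA, whereas LOC543090 did not. LOC606354 (Ta.1361.1.S1_s_at) read 9.56 and 10.06 in FR CA and 9.65 and 9.19 in FS CA, against 14.02 and 14.16 in FR NT and 14.21 and 14.03 in FS NT. LOC100037577 (TaAffx.78714.1.S1_at) read 10.50 and 10.31 in FR CA and 9.69 and 10.10 in FS CA, against 14.03 and 14.25 in FR NT and 14.20 and 14.09 in FS NT. In the gene table of the Chinese Spring assembly, LOC606354 and LOC100037577 lie close together, with 4 coding genes between them. LOC100037585 had 2 members, and both of its probe sets fell less than those of the other 6 genes. Ta.1839.1.S1_at read 8.84 and 8.87 in FR CA and 8.59 and 8.67 in FS CA, against 12.37 and 12.56 in FR NT and 12.67 and 12.39 in FS NT. Its fall was 12.2-fold in FR and 15.0-fold in FS.

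**Figure D2:**
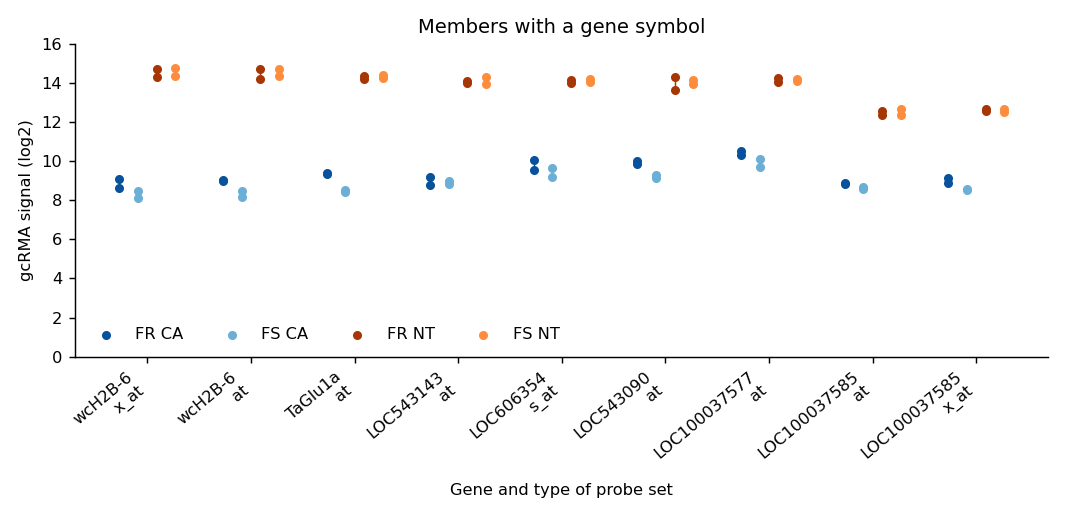
gcRMA log2 signal (vertical axis) of the 9 members with a gene symbol (horizontal axis). Points are single arrays and the line joins the 2 arrays of a group, with FR CA, FS CA, FR NT and FS NT from left to right. Every gene sits between 8.10 and 10.50 in CA and between 12.37 and 14.79 in NT. FR CA lies above FS CA without overlap for every gene but LOC543143 and LOC606354. The same held for 54.0% of all members, 16.6% of the probe sets at the level limit and 9.59% of all tested.

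The 150 members fell into 93 sequence clusters by the number in the probe set name, and 21 clusters held 78 of them. Probe sets of a cluster share sequence and often label the same or closely related transcripts, so members of a cluster are not independent. Ta.10329 was the largest, with 15 members of 39 probe sets and no gene name. Its members had median changes of -4.69 in FR and -5.11 in FS, and they spanned 8.09 to 11.78 on the CA arrays and 13.12 to 15.70 on the NT arrays. Ta.7378, which also holds the probe sets of the histone gene wcH2B-8 that the rule left out, gave 12 members of 38 probe sets, with medians of -5.11 in FR and -5.38 in FS. Ta.27657, the cluster of the likewise excluded histone gene H2A-9, gave 5 members of 14 probe sets, with medians of -5.10 in FR and -5.30 in FS.

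Together these 3 clusters held 32 members. Smaller ones included Ta.2678, Ta.27101 and Ta.7703 with 4 members each and Ta.1130, Ta.12561, Ta.1305 and Ta.18968 with 3 each. Ta.27101 fell with a median of -4.99 in FR and -5.76 in FS, and Ta.1130 with -6.45 in FR and -5.15 in FS. Ta.7703 fell least among those of 4 or more members, with -3.77 in FR and -3.86 in FS, with CA values of 10.18 to 10.84.

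Other probe sets of the same clusters that were not members were read beside them. Their clusters were picked through the members and they share sequence with them, so they are no independent check of the fall. There were 184 such partners, and 132 of them (71.7%) were called lower in both lines, where 12.3% of all tested probe sets were. Of the 61115 tested, 17903 stood at the lowest signal on every array, where no fall can be seen, against 9 partners. The median change of the partners was -2.87 in FR and -2.83 in FS. Of the 75 partners bright enough for the level limit in CA, 57 (76.0%) were lower in both lines, against 19.9% of the other probe sets at that level. Of the 109 dimmer partners, 75 (68.8%) were, with no share at a matching level to set beside it. In the Ta.10329 cluster 21 of 24 partners were lower in both lines, in Ta.7378 24 of 26 and in Ta.27657 9 of 9. Outside these 3 clusters the count was 78 of 125 (62.4%). Among the 184 partners were 14 probe sets that the rule left out by name. All 14 were called lower in both lines, with medians of -6.57 in FR and -6.75 in FS. Of the other 170 partners, 118 (69.4%) were lower in both lines.

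Partners did not all move with the members. Of 184, 10 (5.43%) were called higher in both lines, where 14.1% of all tested probe sets were, and 8 of these were in the cluster Ta.23807. Its member Ta.23807.2.S1_s_at read 9.84 and 9.61 in FR CA and 8.61 and 8.75 in FS CA, against 15.18 and 15.23 in FR NT and 15.31 and 15.09 in FS NT. Its partner Ta.23807.8.S1_x_at ran the other way, with 15.53 and 15.82 in FR CA and 15.75 and 15.85 in FS CA, against 14.47 and 14.26 in FR NT and 14.56 and 14.43 in FS NT. In Ta.27101, Ta.27101.7.S1_at fell by 6.16 in FR and 6.37 in FS, while Ta.27101.11.S1_at was 0.30 higher in FR and 0.43 higher in FS. The 16 histone probe sets that the rule excluded by name included 15 called lower in both lines, with medians over the 16 of -6.53 in FR and -6.74 in FS.

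**Figure D3:**
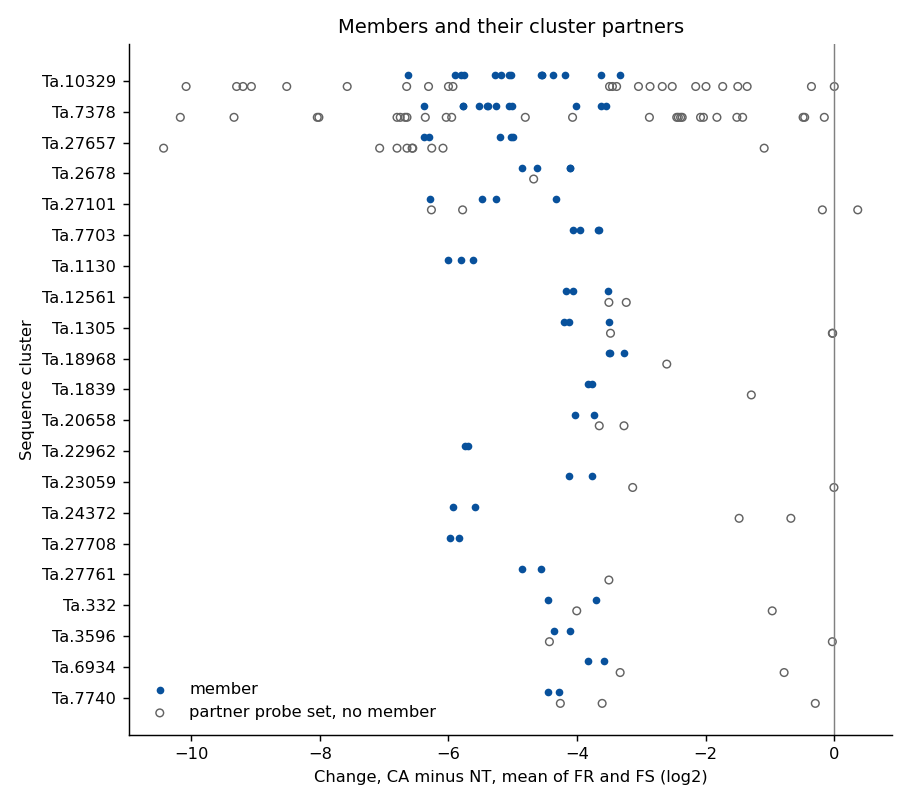
Log2 change (CA minus NT, mean of both lines; horizontal axis) of members (filled) and of partner probe sets that were not members (open) in the 21 sequence clusters with more than 1 member (vertical axis). Partners spread more widely than members, on both sides of them, and lie mostly left of 0 in Ta.10329, Ta.7378 and Ta.27657.

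Probe sets of the x_at kind made up 39.3% of the members, against 18.8% of all probe sets at the level limit and 11.1% of all tested. Plain at probe sets made up 44.7% of the members, against 58.6% at the level limit. The median change in FR was -4.28 for x_at members and -4.04 for at members, and in FS it was -4.58 for x_at members and -4.37 for at members.

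The fall was also described across the 2 lines, with probe sets chosen on the arrays of 1 line and read on the other. Most of these were members, both lines share the difference in cold and age, and the fit used all 8 arrays. The reading is therefore no independent check. Of the 150 probe sets with the widest gaps on the 4 FR arrays, 119 were members. On the FS arrays 150 of 150 were called lower, where 13.8% of all tested probe sets and 22.6% at the level limit were. Their gaps in FS ran from 2.91 to 7.86 (median 4.69). Of the 150 chosen on the 4 FS arrays, 127 were members. On the FR arrays 148 of 150 were called lower, where 13.6% of all and 22.4% at the level limit were. Their gaps in FR ran from -0.15 to 7.48 (median 3.95), and 1 probe set overlapped between CA and NT there. The share without overlap in a single line was not counted over all tested probe sets.

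**Figure D4:**
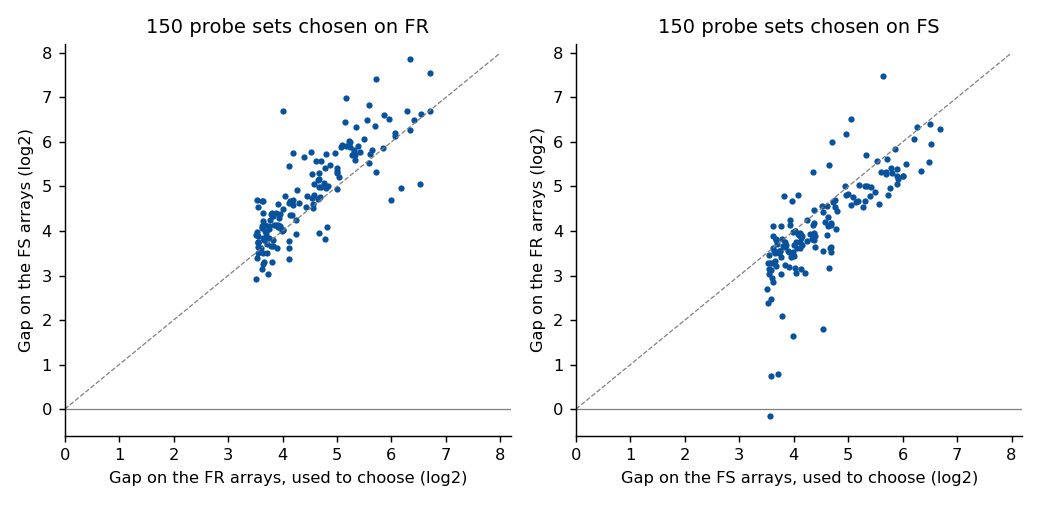
Gap between the lowest NT and the highest CA array (log2) for 150 probe sets chosen on the FR arrays (left) and 150 chosen on the FS arrays (right), with the gap in the choosing line on the horizontal axis and in the other line on the vertical axis. The dashed line marks equal gaps. Gaps read in FS lie between 2.91 and 7.86, and those read in FR between -0.15 and 7.48.

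The rule did not rank by the difference between FR and FS, and this difference was tested. The lowest and the highest of the same CA arrays did enter the rule, so it limited how far the lines could differ in CA. The lowest of the NT arrays entered the rule too. Neither the CA counts nor the NT counts below are therefore free of the choice of members. In CA the members were on the whole higher in FR. The FR CA mean was above the FS CA mean for 111 members and below it for 39, with a median log2 difference (FR minus FS) of 0.19, against -0.07 over the 14252 probe sets at the level limit. Both FR CA arrays lay above both FS CA arrays for 81 members (54.0%), where 9.59% of all tested probe sets and 16.6% of those at the level limit did so. The reverse held for 25 members (16.7%), where 15.5% of all and 35.7% at the level limit did so. By cluster, the median difference was above 0 in 62 of 93 and below 0 in 31.

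In NT the lines were much closer. This held over all probe sets at the level limit too, with quartiles of -0.1 and 0.02 in NT against -0.21 and 0.06 in CA. The median member differed by -0.03, with 56 higher in FR and 94 lower. Both FR NT arrays lay above both FS NT arrays for 8 members (5.33%) and below for 13 (8.67%). Of all tested probe sets 3.75% and 6.67% did so, and of those at the level limit 3.63% and 13.1%. Limma called 0 members between the lines in NT (1 at an unadjusted p under 0.05). Of all tested probe sets 0.0213% were called and 1.43% had an unadjusted p under 0.05, against 1.85% at the level limit for the latter.

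**Figure D5:**
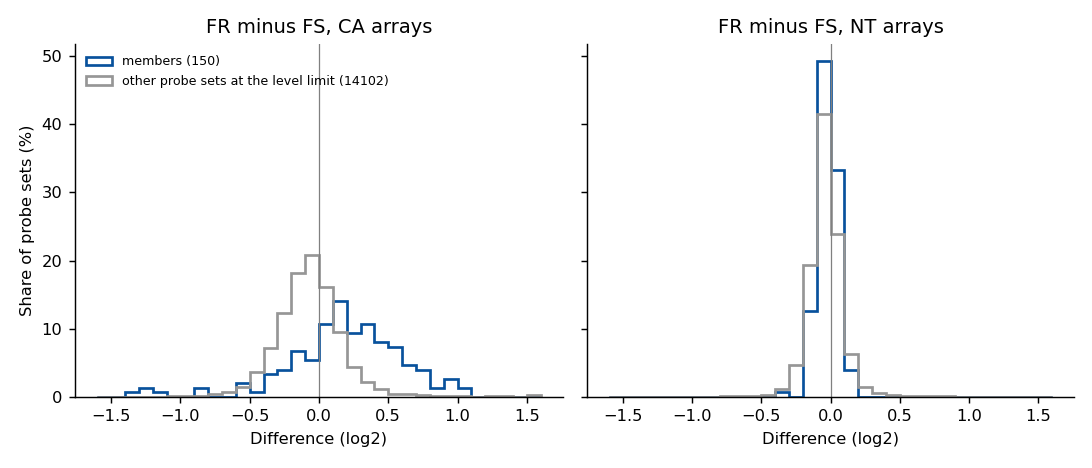
Share of probe sets (vertical axis, percent) by log2 difference FR minus FS (horizontal axis) on the CA arrays (left) and the NT arrays (right), for the 150 members and the other probe sets at the level limit. The members' median lies at 0.19 in CA and at -0.03 in NT.

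Limma called 6 members between the lines in CA (4.0% of members, where 0.373% of all tested probe sets and 0.267% at the level limit were called), and each was higher in FR. Ta.7378.22.S1_at, in the wcH2B-8 cluster, differed by 0.90 ± 0.04 (SE, adjusted p 0.0101). It read 9.73 and 9.79 in FR CA and 8.81 and 8.90 in FS CA, against 14.85 and 14.86 in FR NT and 14.79 and 14.84 in FS NT. Its companion probe set Ta.7378.22.S1_x_at, also a member, differed by 0.50 in CA (adjusted p 0.104) and was not called. TaGlu1a differed by 0.90 ± 0.08 (adjusted p 0.0428), a 1.86-fold higher signal in FR CA. The other probe set of its cluster, Ta.4601.1.S1_s_at, was instead lower on both FR CA arrays than on both FS CA arrays. Ta.10329.34.S1_x_at differed by 0.98 ± 0.08 (adjusted p 0.0337), with 9.67 and 9.80 in FR CA and 8.77 and 8.73 in FS CA, against 14.45 and 14.41 in FR NT and 14.34 and 14.52 in FS NT. Ta.4783.1.S1_x_at differed by 0.63 ± 0.04 (adjusted p 0.022), with 11.34 and 11.43 in FR CA against 10.74 and 10.77 in FS CA. Ta.24372.1.S1_at (0.50, adjusted p 0.0262) and Ta.7378.8.S1_x_at (0.42, adjusted p 0.0485) differed less. In all 6 the CA arrays of the lines did not overlap.

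At an unadjusted p under 0.05, 67 members (44.7%) differed between the lines in CA, 53 higher and 14 lower in FR, where 7.64% of all tested probe sets and 14.5% at the level limit passed. Arrays with the same replicate number in the labels deviated together, so the difference was also read within each number. FR minus FS in CA had a median of 0.22 over the members in replicate 1 and 0.20 in replicate 2, with 104 and 105 members above 0, against medians of -0.08 and -0.05 over the probe sets at the level limit. With the replicate number as a block, Ta.7378.22.S1_at alone was called (adjusted p 0.0376), and the other 5 had adjusted p from 0.0816 to 0.179. Centred on the poly-A spike-ins, the median difference was 0.14 with 103 members higher in FR, but the calls were then 4 other members, all lower in FR, in Ta.1130 (3) and Ta.27751 (1), where 0.7% of all tested probe sets were called on that scale. Only 25 members then had an unadjusted p under 0.05. Leaving out any 1 NT array left 0 called.

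The fall was smaller in FR than in FS for 115 members, and the median difference in response was 0.22. Limma called 1 member (0.667%), where 0.108% of all tested probe sets were called, and 46 members (30.7%) had an unadjusted p under 0.05, where 4.47% of all did. The call was Ta.7378.22.S1_at, whose change was -5.10 in FR and -5.96 in FS, a difference of 0.86 ± 0.06 (SE, adjusted p 0.0447). It was not called with the replicate block (adjusted p 0.0944). The companion probe set Ta.7378.22.S1_x_at had a difference in response of 0.44 (adjusted p 0.455) and was not called.

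The clusters shared these line differences unevenly. In Ta.10329 the FR CA mean was higher in 15 of 15 members, with a median of 0.48, and both FR CA arrays lay above both FS CA arrays in 14 of them. In Ta.7378 this median was 0.41 and 10 of 12 were higher in FR, and in Ta.27101 it was 0.69 with 4 of 4. Ta.27657, although it fell as far as Ta.7378, had a smaller median of 0.13, with 4 of 5 higher in FR. Both FR CA arrays lay above both FS CA arrays in 4 of 5 members there and in 9 of 12 in Ta.7378. Of all tested probe sets 9.59% did so, and of those at the level limit 16.6%. Members of a cluster share sequence, so these counts are not of independent observations. The wcH2B-6 probe sets differed by 0.56 and 0.69, and neither was called (adjusted p 0.823 and 0.52).

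Ta.1130 went the other way. Its members were lower in FR CA by 1.29 to 1.31, and they had the largest line differences of any members in CA. Ta.1130.3.S1_x_at read 8.72 and 8.70 in FR CA and 9.89 and 10.12 in FS CA, against 15.24 and 15.47 in FR NT and 15.57 and 15.18 in FS NT. The other 2 probe sets were also lower on both FR CA arrays than on both FS CA arrays. Their adjusted p were 0.116, 0.12 and 0.15, so none was called as deposited. All 3 were called once the arrays were centred on the spike-ins (adjusted p 0.00169 to 0.0023). The spike-ins themselves differed within a group, with means of 9.37 and 9.84 in FR CA and 9.47 and 9.64 in FS CA. Centring on them thus shifted the 2 arrays of a group by unlike amounts, and what this did to the calls was not tested. Ta.27751.7.A1_x_at was likewise lower in FR CA, with 9.91 and 10.01 in FR CA and 11.11 and 11.07 in FS CA, against 14.79 and 15.25 in FR NT and 15.09 and 14.93 in FS NT. Ta.23807.2.S1_s_at (1.05) and Ta.14442.1.S1_at (1.09) were higher in FR CA by more than 1 log2 unit and were not called (adjusted p 0.0758 and 0.307).

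Along the gap, the measure that chose the members, the line difference is given as a description with no test. The share of probe sets with a higher mean in FR CA was 74.0% among the members, 60.7% among gap ranks 151 to 300, 56.7% among ranks 301 to 600, 50% among ranks 601 to 1200 and 41.3% among ranks 1201 to 3795. The median differences in the same order were 0.19, 0.08, 0.04, 0.0 and -0.04. In NT the share was 37.3% among the members and between 22.7% and 29.5% in the other ranges.

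Markers of other tissues were read beside the members. Of the green leaf list, 3 of 20 names matched 5 probe sets, 4 of which were lower in both lines and 1 at the array's floor of 2.15, with a log2 summed signal of 14.31 to 14.44 in FR CA and 14.56 to 14.64 in FS CA, against 15.91 to 16 in FR NT and 15.85 to 16.14 in FS NT. The leaf list was thus lower in CA together with the members, and its part in their fall was not tested. According to the methods the crowns were taken free of leaf and root material. The root list had 1 match, TaALMT1, which stood at or near the floor on all arrays (2.16 to 2.45). The list of dividing cells had 9 probe sets of histone H2A genes, of which 8 were lower and 1 higher in both lines, with summed signals of 11.16 to 11.35 in CA and 17.48 to 17.67 in NT, and its part was not tested either. The cold list matched rab, with 3 probe sets higher in both lines and summed signals of 16.74 to 17.03 in CA and 6.65 to 7.99 in NT.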

How the data were processed

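Background correction and normalization were done by the authors with gcRMA, and the log2 values they deposited were used unchanged. RMA and GCRMA are the tools in the submitters' processing notes. The table holds 61290 probe sets, and 175 controls were left out. No genome build is given in the sources used here. The number of arrays limits the precision.

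Group means were fitted in R 4.3.3 with limma 3.58.1 (variances moderated along an intensity trend, residual degrees of freedom 4, prior 0.623), with Benjamini-Hochberg adjustment over 61115 probe sets and calls at an adjusted p under 0.05. The fit was also run on simulated arrays with independent noise. These lack the deviations shared by replicate number described below, so the run does not give the error rate in these data. Tables and figures used Python 3.11.15, pandas 2.3.3 and matplotlib 3.10.9. Names to be dropped were matched to annotation symbols or other names in the gene table. Matching symbols alone let 5 more histone and photosystem probe sets in and left 145 of 150 members. All 7 genes with a symbol were found in the gene table.

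The members, lists and tests were chosen with earlier results of these data known. Named in the text are members with 1 symbol, the 10 widest gaps, 3 on each side of the edge, members called between the lines, clusters of over 1 member and the 5 highest in CA. Ta.2534.1.S1_at, the members with a line difference over 1 and the partner examples were picked for their values. Deviations of arrays with the same replicate number correlated at 0.13 to 0.45 over the 6 pairs of groups. Replicate 2 had the higher sucrose synthase 3'-5' difference in every group (6.38 to 7.48, against 5.24 to 5.55 in replicate 1). The number was therefore fitted as a block, but only as an alternative. The main fit did not pair the arrays. Calls, SEs and p-values come from that unpaired fit unless the block or another alternative is named.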

Additional observations from a re-analysis of the deposited data

Results flagged for a closer look

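A difference between the lines in the response to cold was called for Ta.7378.22.S1_at, a member of the wcH2B-8 sequence cluster, which fell by 5.10 in FR and by 5.96 in FS. The test of the difference itself (limma interaction, 0.86 ± 0.06 SE) gave an adjusted p of 0.0447, and over the alternatives tried the difference ran from 0.81 to 0.9 with adjusted p from 0.0086 to 1. The call was lost under 7 of 15 alternatives, the replicate block (adjusted p 0.0944) among them. The companion probe set Ta.7378.22.S1_x_at, also a member, had a smaller difference of 0.44 in the main fit (limma interaction, adjusted p 0.455). The call thus rests on 1 probe set. Groups of 2 arrays are too small for a test of outlying arrays.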

How the results depend on the processing

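The members' count of line calls in CA was 6 as deposited (0.373% of all tested probe sets called), 0 with robust variances (0.0573%), 1 with the replicate block (0.0573%), 11 with arrays centred on their medians (0.463%), 12 with signals under an array's median raised to it (0.483%) and 17 with probe sets under that median left out (0.986%). Without 1 array it ran from 0 (without either FR NT or either FS NT array, 0.0524% to 0.0785% of all) to 11 (without FS CA replicate 2, 2.76% of all; 2.76% to 3.55% without any 1 CA array). Of the 11, 12 and 17 calls, 4, 3 and 5 were lower in FR. On the spike-in scale 4 were called (0.7% of all), all lower in FR and none of the 6. The single call in the difference in response became 0 without the intensity trend, with robust variances, with the replicate block, with either centring, with floored values, with probe sets above the median only and with a level limit of 9. Without 1 array it ran from 1 to 6 members (0.667% to 4.0%), where 1.45% to 3.05% of all tested probe sets were called. The cause of these shifts was not tested.

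The median change was -4.81 in FR and -5.08 in FS on the spike-in scale, -4.82 and -5.04 with a level limit of 7, and -3.44 and -3.58 with a limit of 9. It was -4.85 in FS for probe sets chosen on the FR arrays, an alternative chosen after seeing the data. Members lower in CA are fixed by the rule, so their counts say nothing of stability. The count of partners lower in both lines and the median FR minus FS difference in CA (0.14 to 0.25) stayed within 1.5 times or 1 SD under the alternatives tried, and the count of calls in NT was 0 in each. The replicate block gave 130 partners in place of 132, and 63 in place of 67 members at an unadjusted p under 0.05 in CA (44 in place of 46 in the difference in response).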
